A study of Mus musculus with 6 samples.

Results

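Calcr, the gene of the calcitonin receptor, was measured together with 6 related receptor genes (Calcrl, Gipr, Glp1r, Glp2r, Pth1r and Vipr1) and the 3 genes of the receptor activity-modifying proteins (Ramp1, Ramp2 and Ramp3) in mouse osteoclasts. The members were every transcript probe whose gene name on the array is one of these 10 symbols, which gave 18 probes among 56605, for 10 of 37074 gene names. Osteoclasts were derived from 3 Ano1fl/fl mice, which carry loxP sites around both copies of the chloride channel gene Ano1 and no Cre, and from 3 littermates of genotype Ctsk-Cre;Ano1fl/fl, in which Cre under the cathepsin K promoter is meant to delete Ano1 once osteoclast differentiation is under way. Cells of both genotypes were treated with RANKL, the cytokine that drives osteoclast formation, for 5 days, and the RNA of each mouse was hybridized to its own Agilent array with a single dye. The labels give no age, and the methods describe osteoclast cultures in general as grown from marrow of mice aged 6 to 8 weeks. The comparison asks how the osteoclast transcriptome differs between the genotypes. The receptor and RAMP genes were chosen from this contrast itself, so their values are a description and no test is given for them.

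Class B receptors are G protein-coupled receptors for peptide hormones, and most of them raise cyclic AMP through the stimulatory G protein. The calcitonin receptor is a defining receptor of the osteoclast, where calcitonin stops resorption. RAMPs are small membrane proteins that pair with the calcitonin receptor or with the calcitonin receptor-like receptor encoded by Calcrl and set which peptide is bound. With Calcrl, RAMP1 gives the receptor for calcitonin gene-related peptide (CGRP), and RAMP2 or RAMP3 gives a receptor for adrenomedullin, whereas calcitonin receptor paired with a RAMP binds amylin. Of the other receptors, Gipr and Glp1r are the receptors of the incretin hormones, Glp2r binds the intestinal peptide GLP-2, Pth1r is the receptor of parathyroid hormone and its related protein and is known from osteoblasts and kidney, and Vipr1 binds vasoactive intestinal peptide.

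Of the member probes, sequences are shown as the array files give them for Calcr and Gipr, whose probes had the largest rises, for the pair of Ramp1 probes that gave unlike sizes, and for 1 of the overlapping Ramp3 probes, which had the largest falls. Coordinates are those of the mm9 build in the files, and the first 30 of the 60 bases are shown except for Ramp1 probe 1, which is given whole.
Calcr probe 1, chr6:3635940-3635999, minus strand: ggacggattgaaggaaggatgttttttcaa
Calcr probe 2, chr6:3636882-3636941, minus strand: tcagtcagttcctatattacacatgttacc
Gipr probe 1, chr7:19742486-19742545, minus strand: aatcaactggaaggcaattgggatagacat
Gipr probe 2, chr7:19747806-19747865, minus strand: gacgtttcccatctatttccgtacctttcc
Ramp1 probe 1, chr1:93093453-93119708, plus strand: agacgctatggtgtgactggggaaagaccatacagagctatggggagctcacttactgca
Ramp1 probe 2, chr1:93103294-93103353, plus strand: cttcttaggtgttccccctctttctatact
Ramp3 probe 1, chr11:6577416-6577475, plus strand: tgagtgtgctcaagggttctgtctgctgat
The Calcr probes do not overlap, nor do those of Gipr. Ramp1 probe 1 has a genomic span of 26256 bases for 60 bases of sequence, so it joins separate exons, and Ramp1 probe 2, which the files assign to another Ramp1 transcript, lies inside that span. The probes for Ramp3 overlap in 52 bases and are therefore close to a repeat of the same measurement.

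Of 59305 transcript spots an array, 33480 to 34951 rose well above background, the 6 arrays were on 1 slide read in 1 scan, and no spot was saturated. The probe for Ano1 was below background on all 6 arrays, with normalized log2 signals of 1.76 to 1.78 on the Ano1fl/fl arrays and 1.70 to 2.04 on the Ctsk-Cre;Ano1fl/fl arrays, so it could not check the genotype labels and every direction below rests on them. Osteoclast markers were present on all arrays, and 11 of 12 were higher and 1 was lower on the arrays labelled Ctsk-Cre;Ano1fl/fl (limma, adjusted p under 0.05, by which 23.4% of all genes tested were higher and 29% lower). Cathepsin K (Ctsk), whose promoter drives the Cre, was higher by 3.17 ± 0.11 (log2, SE; limma adjusted p = 1.53e-05), Oscar by 6.48, and Tnfrsf11a, which encodes the RANKL receptor, fell by 0.40. Mmp9 was higher by 4.36, Acp5 by 0.84 and Nfatc1 by 0.53 (log2; limma adjusted p of 2.05e-05 to 0.00348). For Ctsk, Mmp9, Acp5 and Nfatc1 this direction is the opposite of the one the study describes both in cultured osteoclasts and in bone of this genotype. Of the stromal and osteoblast markers, 8 of 11 tested were higher, 2 were lower, and the summed signal of the 12 listed genes was 2685 to 3813 on the Ano1fl/fl arrays and 56102 to 93936 on the Ctsk-Cre;Ano1fl/fl arrays. Pdgfra of this list was below background on all 3 Ano1fl/fl arrays. Of the endothelial markers, 1 of 7 tested was higher and 2 were lower, Tek and Tie1 were below background on all arrays, and the summed signal was 6766 to 8345 against 3509 to 4090. In macrophage markers 1 of 10 was higher and 4 were lower, in mural markers 3 of 6 tested were higher and 1 lower, and in T and NK cell markers 5 of 10 were higher and 1 lower. In bulk RNA such as this, fewer cells of a type and less RNA per cell cannot be told apart. The part of these marker differences in the values of the receptors was not tested.

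**Figure D1:**
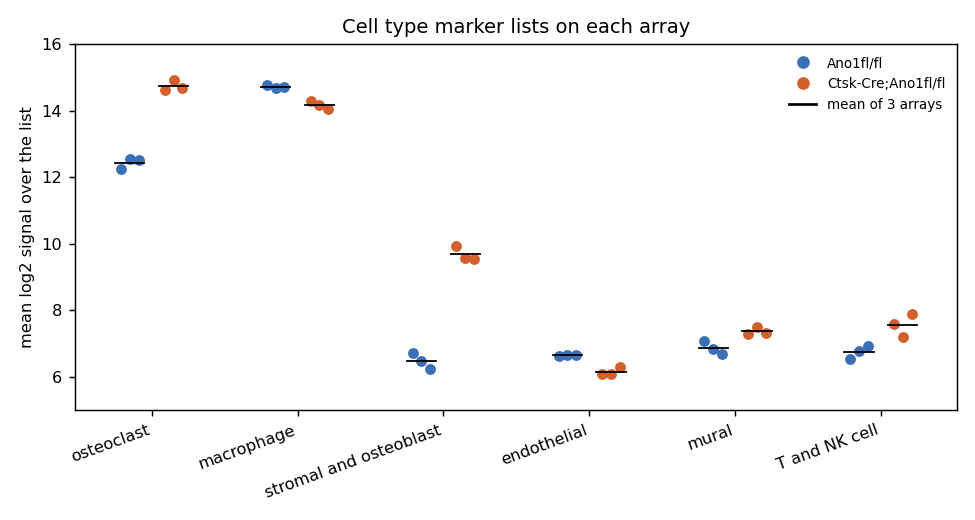
Mean normalized log2 signal over each list of cell type markers on each array, with a point for each of the 3 arrays of a genotype and a bar for their mean. The stromal and osteoblast list lies between 6.24 and 6.71 on the Ano1fl/fl arrays and between 9.54 and 9.94 on the Ctsk-Cre;Ano1fl/fl arrays, and the osteoclast list between 12.25 and 12.53 against 14.63 and 14.91.

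Calcr was near or below background in Ano1fl/fl osteoclasts and bright in Ctsk-Cre;Ano1fl/fl osteoclasts on both of its probes. Its probe 1 had normalized log2 signals of 3.85, 4.36 and 4.14 on the Ano1fl/fl arrays, the first of which was not well above background, and of 12.71, 13.33 and 12.98 on the Ctsk-Cre;Ano1fl/fl arrays. On the linear scale of the scanner, before normalization between arrays, these were 13.4, 22.0 and 20.5 against 6668, 8373 and 7466. All 3 Ctsk-Cre;Ano1fl/fl arrays were thus far above all 3 controls. The group means were 4.12 ± 0.25 and 13.01 ± 0.31 (log2, SD, n = 3), a difference of 8.89 or 474-fold, and of 8.81 with the dim array set to its lowest signal well above background. Probe 2 was below background on all 3 Ano1fl/fl arrays and read 8.45, 9.14 and 8.77 on the Ctsk-Cre;Ano1fl/fl arrays. Against the lowest signals that count as well above background on the control arrays, this is at least 28.2-fold higher. The size of the difference on probe 1 depended on how background was treated, being 6.72 (log2) after normexp correction and 7.34 in the values of the series matrix. Probe 2 differed by 3.04 after normexp and by 3.91 in the series matrix, both below its lower limit of 4.82 (log2). The lower limits hold for the processed signal only, since all 9 of them exceeded the differences under both of these treatments of background.

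Gipr, the receptor of glucose-dependent insulinotropic polypeptide, had the same arrangement of groups. Probe 1 was below background on the 3 Ano1fl/fl arrays and gave 8.20, 8.29 and 8.28 (normalized log2 signal) on the Ctsk-Cre;Ano1fl/fl arrays, at least 19.5-fold higher. Probe 2, designed on a cDNA clone, was below background on the 3 Ano1fl/fl arrays as well and gave 6.38, 5.88 and 6.20, at least 4.55-fold higher. The 3 Ctsk-Cre;Ano1fl/fl arrays were the only ones on which any Gipr probe was measured. The fitted difference of probe 1, against an unmeasured level, was 6.55 (log2) and came to 2.55 with normexp correction and 3.40 in the series matrix, both below the lower limit of 4.29 (log2).

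**Figure D2:**
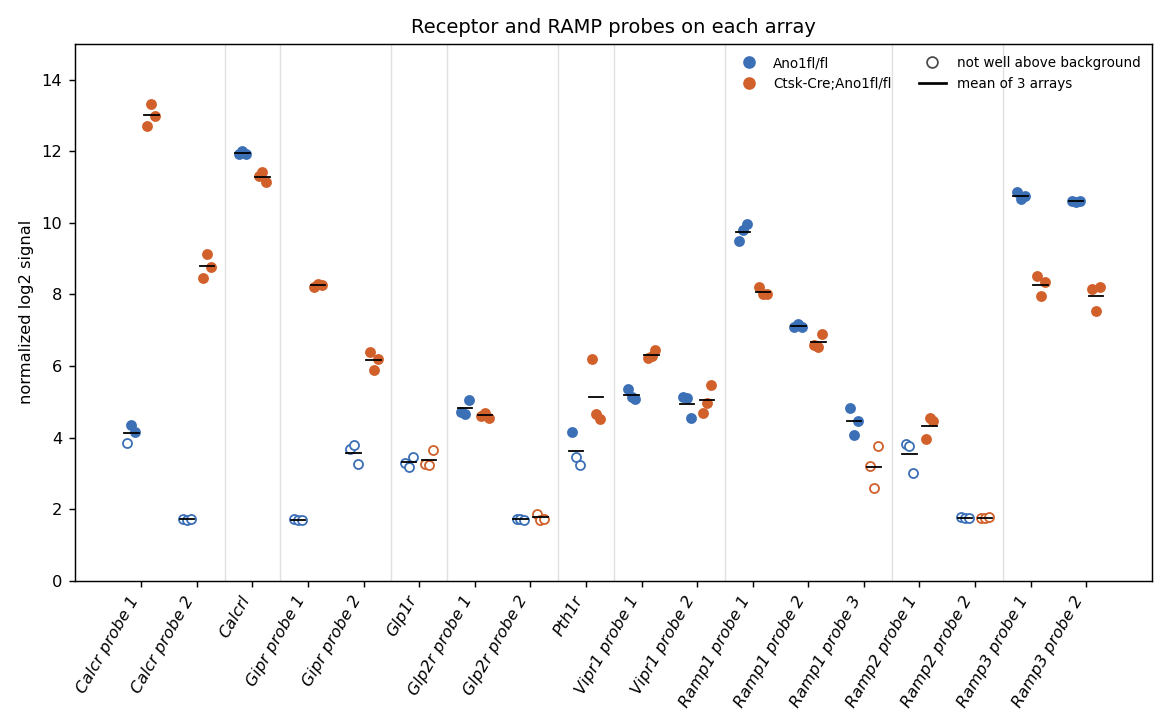
Normalized log2 signal of all 18 probes on each of the 6 arrays, with filled circles where the spot was well above background, open circles where it was not, and a bar for the mean of 3 arrays. Calcr and Gipr are filled and high in Ctsk-Cre;Ano1fl/fl and mostly open in Ano1fl/fl, whereas Calcrl, Ramp1 and Ramp3 are lower in Ctsk-Cre;Ano1fl/fl.

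Calcrl, which forms the CGRP and adrenomedullin receptors, was bright on every array and lower in Ctsk-Cre;Ano1fl/fl osteoclasts. Its probe (chr2:84171069-84171128, minus strand) read 11.91, 12.02 and 11.92 in Ano1fl/fl osteoclasts against 11.32, 11.42 and 11.14 in those of Ctsk-Cre;Ano1fl/fl mice (normalized log2 signal). The groups did not overlap. The means were 11.95 ± 0.06 and 11.29 ± 0.15 (SD, n = 3), so the signal was 1.58-fold lower, and the log2 difference stayed between -0.73 and -0.61 under the 4 treatments of the signal.

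The RAMP genes differed from one another. Ramp3 was lower in Ctsk-Cre;Ano1fl/fl osteoclasts by the largest margin among the members. Ramp3 probe 1 gave 10.86, 10.67 and 10.76 in Ano1fl/fl osteoclasts against 8.52, 7.96 and 8.35 in those of Ctsk-Cre;Ano1fl/fl mice, a 5.61-fold lower signal. Probe 2, which shares most of its bases with probe 1, gave a 6.22-fold lower signal. Both probes were well above background on all 6 arrays and neither showed overlap between genotypes.

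Ramp1 was lower as well, by an amount that depended on the probe. The exon-spanning probe 1 read 9.50, 9.80 and 9.97 in Ano1fl/fl osteoclasts against 8.21, 8.02 and 8.00 in those of Ctsk-Cre;Ano1fl/fl mice (normalized log2 signal), 3.20-fold lower. Probe 2, inside the span of probe 1 and assigned to another transcript, read 7.10, 7.18 and 7.10 against 6.59, 6.52 and 6.88, 1.38-fold lower. Probe 3, farther downstream at chr1:93121428-93121487, was well above background on the 3 Ano1fl/fl arrays and on none of the Ctsk-Cre;Ano1fl/fl arrays, and was at least 1.37-fold lower. On all 3 probes the Ano1fl/fl arrays were thus above the Ctsk-Cre;Ano1fl/fl arrays, although the groups of probe 3 overlapped in the series matrix values (means of 9.76 ± 0.24 and 8.08 ± 0.11, SD, n = 3, on probe 1).

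Ramp2 was dim. Its probe 1 (chr11:101109501-101109560) was below background on the 3 Ano1fl/fl arrays, at 3.83, 3.77 and 3.01, and just above it on the 3 Ctsk-Cre;Ano1fl/fl arrays, at 3.97, 4.55 and 4.46, which is at least 1.28-fold higher. Probe 2 (chr11:101108912-101108971), upstream in the same transcript, was below background on all 6 arrays. The groups of probe 1 overlapped in the values of the series matrix.

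Pth1r and Vipr1 lay close to background and were higher in Ctsk-Cre;Ano1fl/fl osteoclasts on some probes. The Pth1r probe (chr9:110624846-110624905, minus strand) read 4.16, 3.47 and 3.24 on the Ano1fl/fl arrays, of which only the first was well above background, and 6.20, 4.67 and 4.51 on the Ctsk-Cre;Ano1fl/fl arrays. Ctsk-Cre;Ano1fl/fl replicate 1 stood above the other two, and the SD of that group was 0.94. Because 2 of the Ano1fl/fl arrays had no measured level, the log2 difference of 1.51 is not exact. It came to 1.14, 2.20-fold, with those arrays set to their lowest signal well above background, to 0.97 without Ctsk-Cre;Ano1fl/fl replicate 1, and to 0.41 after normexp correction. Vipr1 probe 1 (chr9:121581964-121582023) read 5.37, 5.12 and 5.07 against 6.21, 6.28 and 6.44, 2.18-fold higher without overlap. This log2 difference of 1.12 came to 0.50 after normexp correction and to 0.72 in the series matrix. Vipr1 probe 2 (chr9:121579630-121579689) read 5.15, 5.11 and 4.55 against 4.70, 4.97 and 5.46, and its groups overlapped.

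The receptors of the glucagon-like peptides had no difference that could be read. The exon-spanning Glp1r probe (chr17:31069561-31073230) was below background on all 6 arrays, at 3.17 to 3.46 in Ano1fl/fl and 3.24 to 3.64 in Ctsk-Cre;Ano1fl/fl. Glp2r probe 1 (chr11:67525830-67535508, minus strand) was well above background on every array and overlapped between genotypes, at 4.72, 4.66 and 5.06 against 4.61, 4.70 and 4.55. Glp2r probe 2 (chr11:67519964-67520023) was below background throughout.

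By the brightest probe of each gene, 9 of the 10 members were measured, meaning that the 3 arrays of either genotype, or of both, all had the probe well above background, and Glp1r was not. Of these 9, 4 were more than 2-fold higher in Ctsk-Cre;Ano1fl/fl (Calcr, Gipr, Pth1r and Vipr1) and 2 were more than 2-fold lower (Ramp1 and Ramp3). After normexp correction and in the series matrix values, Pth1r (0.41 and 0.63, log2) and Vipr1 were below 2-fold, which left 2 members higher and 2 lower. Without Ctsk-Cre;Ano1fl/fl replicate 1, Pth1r was below 2-fold and 3 members were higher. Over the 20645 genes measured, 9.96% were more than 2-fold higher and 7.38% more than 2-fold lower. The groups did not overlap for 8 of the 9 members, against 64% of all genes measured. Because the members were picked from this contrast, nothing is read from these shares.

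**Figure D3:**
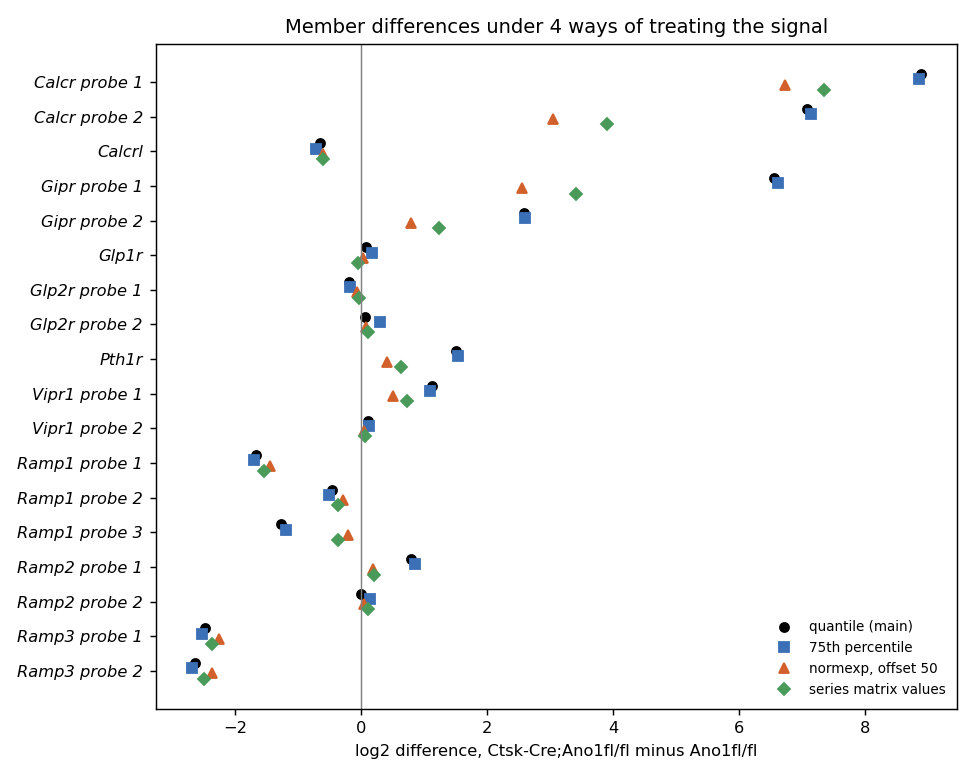
Log2 difference, Ctsk-Cre;Ano1fl/fl minus Ano1fl/fl, of each of the 18 probes under 4 treatments of the signal (quantile normalization of the processed signal, 75th percentile scaling of it, normexp background correction, and the series matrix values). The differences of Calcr and Gipr shrink where background is left in or an offset is added, as for Calcr probe 1 from 8.89 to 6.72 (the points of probes below background in a genotype, among them both of Gipr, are fitted against unmeasured levels), whereas those of Calcrl and Ramp3 move little, as for Ramp3 probe 1 from -2.49 to -2.26.

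For the 5 members well above background on all 6 arrays, the genes whose profiles lay closest, by the root mean square distance between log2 profiles centred on their own means, are given as a description. Calcr, Gipr, Pth1r and Ramp2 were not well above background on 1 or more of the Ano1fl/fl arrays, so their distances would rest on unmeasured levels and none is given. Calcrl lay closest to Syn1, Cpne2 and Tmod2, at distances of 0.04 to 0.05. Ramp1 lay closest to Gp9, Dna2 and Mrvi1, at 0.08. Ramp3 lay closest to Anln, Dppa3 and Plk1, at 0.11 to 0.12, of which Anln and Plk1 are genes of cell division. Vipr1 lay closest to Asb2, Map3k8 and Rac2, at 0.08, and Glp2r to Kmt2c, Synj1 and Usp24, at 0.05 to 0.06. With 6 arrays in 2 groups, this measure mostly matches the size of the difference between genotypes.

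The peptide ligands of these receptors were mostly not measurable, and those that were moved in both directions. Of 18 ligand genes listed, 5 were tested, 2 rose, 1 fell and 2 did not pass the test (limma, adjusted over all 20645 genes, of which 23.4% were higher and 29% lower). Adm, which encodes adrenomedullin, read 5.12, 5.94 and 5.62 in Ano1fl/fl osteoclasts against 9.87, 9.73 and 9.29 in those of Ctsk-Cre;Ano1fl/fl mice, a rise of 4.07 ± 0.25 (log2, SE) or 16.7-fold (limma adjusted p = 7.78e-05), and of 2.94 after normexp and 3.38 in the series matrix. Adm2, which encodes the related peptide intermedin, was below background on the 3 Ano1fl/fl arrays and at least 8.94-fold higher in Ctsk-Cre;Ano1fl/fl (limma adjusted p = 0.000144). Calca, the gene of calcitonin and CGRP, read 4.83, 5.09 and 5.05 in Ano1fl/fl and was below background on the 3 Ctsk-Cre;Ano1fl/fl arrays, at least 1.98-fold lower (limma adjusted p = 0.00185). The p-values of Adm2 and Calca belong to fitted differences against unmeasured levels, not to these limits. A second Calca probe was below background on all arrays. Pth2 and Gcg did not pass the test, with log2 differences of -0.06 and -0.07, and the Gcg probe with signal was not the one for its RefSeq transcript, which was below background. Calcb, Iapp, Gip, Pth, Pthlh and Vip were among the 13 ligand genes not tested.

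Among genes that process or clear these peptides, 2 of 5 tested rose and 2 fell. Dpp4, the peptidase that inactivates incretins, rose by 3.21 ± 0.25 (log2, SE; limma adjusted p = 0.000201), from 7.02 to 10.23 in the group means, and by 2.31 on the mean of its probes. Ackr3, a scavenging receptor for chemokines and adrenomedullin, had a difference of 1.66 ± 0.43 (limma adjusted p = 0.0184), which no longer passed with the methods' t-test (adjusted p = 0.0663) or without Ctsk-Cre;Ano1fl/fl replicate 1 (limma adjusted p = 0.0568) or 2 (limma adjusted p = 0.0514). Its probe was well above background on 1 of 3 Ano1fl/fl arrays, and the difference was 1.00 with the dim arrays at their lowest signal well above background, 0.37 after normexp and 0.55 in the series matrix. Pam, the enzyme that amidates calcitonin, CGRP and adrenomedullin, fell by 1.04 ± 0.16 (limma adjusted p = 0.00237). Mme, the peptidase neprilysin, fell by 0.56 ± 0.12 (limma adjusted p = 0.0084) on its brightest probe, with a difference of -0.06 on the mean of its probes (limma adjusted p = 0.793).

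Of 8 other class B receptor genes, 6 were tested, 2 rose and 2 fell, each by less than 2-fold. Vipr2, the partner receptor of Vipr1, rose by 0.92 ± 0.21 (log2, SE; limma adjusted p = 0.0115) on its only probe above background, and did not pass on the mean of its probes (limma adjusted p = 0.521). It was well above background on 2 of 3 Ano1fl/fl arrays and came to 0.27 after normexp and 0.37 in the series matrix. Ghrhr, the receptor of growth hormone-releasing hormone, had a difference of 0.71 ± 0.21 (limma adjusted p = 0.0304) on a cDNA clone probe, which did not pass with the replicate block (adjusted p = 0.0764) or in 4 of the 6 fits that left out an array (adjusted p of 0.0582 to 0.0943), and its RefSeq probe was below background. On the clone probe the difference of Ghrhr was 0.47 after normexp. Crhr2 fell by 0.92 ± 0.11 (limma adjusted p = 0.000959) and Gcgr, the glucagon receptor, by 0.42 ± 0.09 (limma adjusted p = 0.00881). The Crhr2 value is from an Ensembl transcript probe and came to -0.64 after normexp and -0.70 in the series matrix. The RefSeq probe of Crhr2 was well above background on 1 of 3 arrays of each genotype, and its groups overlapped. Gcgr came to -0.23 after normexp and to -0.21 in the series matrix values, where it did not pass (limma adjusted p = 0.07). Crhr1 and Adcyap1r1 had differences of 0.20 and 0.19 that did not pass the test, and Pth2r and Sctr were not tested. Adrbk2, Arrb1 and Grk4 are among the kinases and arrestins that switch such receptors off. In their list, which also holds receptor accessory genes, 1 of 10 genes rose and 3 fell. Arrb1, beta-arrestin 1, fell by 0.77 ± 0.09 and Grk4 by 0.82 ± 0.13 (limma adjusted p = 0.0513 on the mean of its probes, and a difference of -0.33 after normexp and -0.51 in the series matrix), while the rise of Adrbk2 by 0.54 was seen on 1 of its 2 probes and did not pass without Ano1fl/fl replicate 1 or 2 (limma adjusted p of 0.0546 and 0.0527).

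Downstream of the receptors, single steps of cyclic AMP signalling differed while the lists as a whole were divided. Of 7 G protein alpha subunit genes, 3 rose and 1 fell. Gnas, the stimulatory subunit, rose by 0.51 ± 0.06 (log2, SE; limma adjusted p = 0.00118), from 15.98 to 16.50 in the group means. Other Gnas probes well above background on all 6 arrays went both ways, from -0.40 to 1.56, and those that were lower overlapped between genotypes. The mean of all Gnas probes gave 0.36. Gnai1, an inhibitory subunit, was below background on the 3 Ano1fl/fl arrays and at least 3.52-fold higher in Ctsk-Cre;Ano1fl/fl. Its limma adjusted p of 4.01e-06 belongs to the fitted difference against unmeasured levels, not to this limit. The SD of those levels, 0.01, does not measure a spread between mice. Gnai2 had probes of opposite sign, at -0.21 and 0.23. The fall is that of Gnai2 (limma adjusted p = 0.0407), which did not pass in any of the 6 fits that left out an array (adjusted p of 0.0512 to 0.106) or with the replicate block (adjusted p = 0.0858). Of 6 adenylyl cyclase genes tested, which make cyclic AMP, Adcy3 rose by 2.74 ± 0.17 (limma adjusted p = 7.89e-05) and Adcy4 by 1.45 ± 0.27, while Adcy7 fell by 0.67 ± 0.07 and Adcy5 was at least 1.69-fold lower. The rise of Adcy3 was 1.50 after normexp and 1.89 in the series matrix. Adcy4 was well above background on 1 of 3 Ano1fl/fl arrays, and its difference was 1.14 with the dim arrays at their lowest signal well above background, 0.39 after normexp and 0.66 in the series matrix.

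Of 9 tested genes for protein kinase A and Epac, the receivers of cyclic AMP, and for inhibitors of the kinase, 1 rose and 5 fell. The inhibitor genes Pkib and Pkig were among the falls. Rapgef3, which encodes Epac1, rose by 1.26 ± 0.08 (log2, SE; limma adjusted p = 8.69e-05). Prkar1b, a regulatory subunit, fell by 0.98 and the kinase inhibitor gene Pkib by 0.53 on their brightest probes, and neither passed on the mean of its probes. Of 16 phosphodiesterase genes, which break cyclic nucleotides down, 3 rose and 3 fell. Pde10a rose by 2.02 ± 0.22 and Pde4b by 1.24 ± 0.07, whereas Pde2a fell by 1.36 ± 0.11 and Pde7b by 1.11 ± 0.15 (limma adjusted p of 5.13e-05 to 0.00161). After normexp Pde10a came to 1.32 and Pde7b to -0.66, and on the mean of all probes Pde4b came to 0.37 and Pde7b to -2.12.

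Of 10 CREB factors and coactivators, 4 rose and 2 fell, all by less than 2-fold. Among those named, Crebbp (0.55), Creb1 (-0.40) and Ep300 (-0.50) had probes of both signs, and Crtc2 (0.34) no longer passed in 4 of the 6 fits that left out an array. Creb1 likewise did not pass in 4 of these fits (limma adjusted p of 0.0637 to 0.0733), with the replicate block (adjusted p = 0.0509) or with the methods' t-test (adjusted p = 0.0544). Of 7 tested genes known to be induced by cyclic AMP, 2 rose and 1 fell. The nuclear receptor gene Nr4a1 read 9.22, 9.16 and 9.40 in Ano1fl/fl and 12.73, 12.32 and 12.88 in Ctsk-Cre;Ano1fl/fl, a rise of 3.38 ± 0.16 (log2, SE; limma adjusted p = 3.12e-05). Sik1 had a difference of 0.53 ± 0.13 (limma adjusted p = 0.0155), with an adjusted p of 0.0522 in the fit with the replicate block, 0.0537 without Ano1fl/fl replicate 2 and 0.051 without Ano1fl/fl replicate 3. Rgs2, a brake on G protein signalling, fell by 1.87 ± 0.11 (limma adjusted p = 6.53e-05). Over all 10 lists, 22 of 81 tested genes rose and 22 fell, with a median log2 difference of -0.02, also with 4 genes at their lower limits, beside -0.06 over all genes tested.

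**Figure D4:**
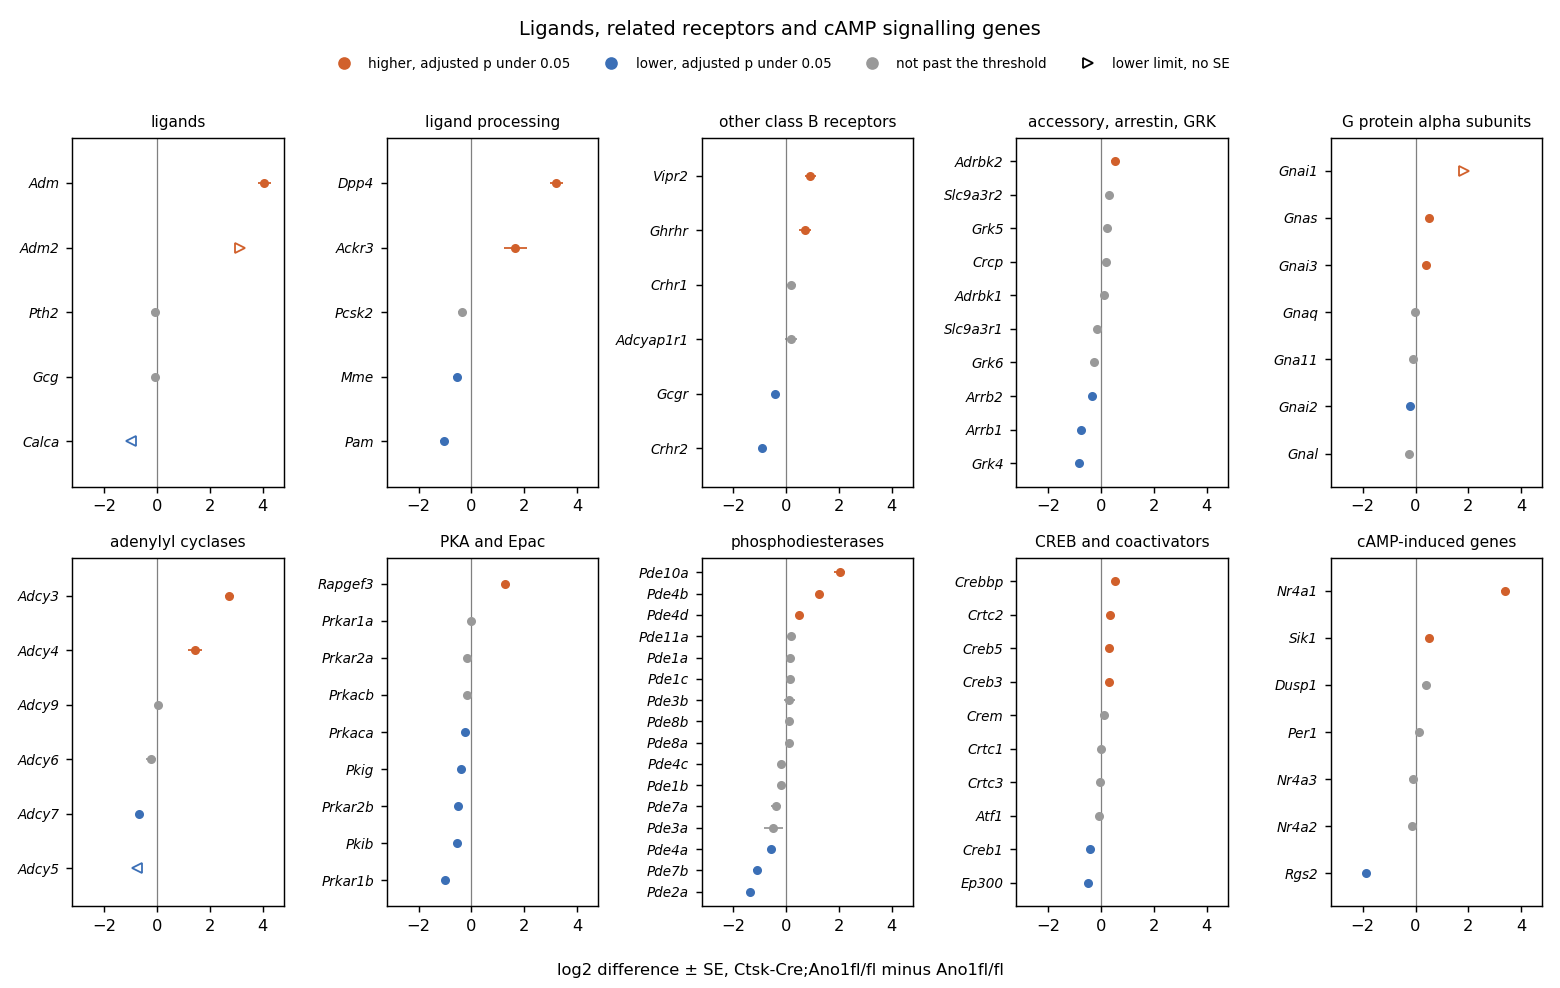
Log2 difference ± SE, Ctsk-Cre;Ano1fl/fl minus Ano1fl/fl, of the 81 tested genes in 10 lists around the receptors, coloured by whether limma's adjusted p was under 0.05, with open triangles at the lower limits of Adm2 (3.16), Gnai1 (1.82), Calca (-0.98) and Adcy5 (-0.76), whose other group was below background on all 3 arrays. Adm, Nr4a1, Dpp4 and Adcy3 stand far to the right and Rgs2 far to the left.

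The bases before the start sites of Calcr are shown because Calcr had the largest difference among the members. Promoter sequences from RefSeq (GRCm38.p6, a build that is not that of the array files) were used for 8 of the 10 members, in 11 windows, and those of Gipr and Ramp2 were not used here. Each window was cut to the 250 bases before the start, and capitals mark TGACG, the core of the cyclic AMP response element, and GGAAA, the core bound by NFAT factors such as NFATc1.
Calcr start 1, chr6:3764714-3764963, minus strand: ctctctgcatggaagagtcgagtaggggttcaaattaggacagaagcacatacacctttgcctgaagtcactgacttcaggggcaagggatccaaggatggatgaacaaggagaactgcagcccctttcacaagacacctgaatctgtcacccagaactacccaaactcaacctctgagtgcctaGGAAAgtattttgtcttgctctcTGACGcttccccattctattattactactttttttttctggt
Calcr start 2, chr6:3763624-3763873, minus strand: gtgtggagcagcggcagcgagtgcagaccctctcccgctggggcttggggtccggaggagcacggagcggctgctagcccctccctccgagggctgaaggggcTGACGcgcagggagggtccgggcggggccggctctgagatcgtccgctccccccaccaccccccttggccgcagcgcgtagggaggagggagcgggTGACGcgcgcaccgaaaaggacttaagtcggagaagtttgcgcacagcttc
Searched on both strands, start 1 held TGACG once and GGAAA once, and start 2 held TGACG at 2 places and no GGAAA. The letters TGACG occurred in 4 of the 11 member windows and in 17.7% of 32817 promoter windows, and GGAAA in 4 of the 11 and in 55.6%. The AP-1 letters TGANTCA were in none of the 11 windows and in 6.75% of all windows. TGANTCA and TGACG share the letters TGA and can overlap, but no member window held both. A match is a description of letters only, and the Calcr probes do not tell which start was used.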

How the data were processed

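RNA was labelled with Cy3 and hybridized to Agilent SurePrint G3 Mouse Gene Expression v2 arrays, 1 array a mouse, with 3 mice of each genotype. Per the file headers and the submitters' processing notes, the authors read the intensity of each spot with Agilent Feature Extraction 10.7.1.1, which subtracts background, removes spatial and multiplicative trends and gives dim spots a surrogate value. The deposited series matrix holds 62973 intensities an array, equal to the median brightness of the spots (largest difference 0). After a log2 transformation, the processed intensities were quantile normalized, as the methods state, and spots of the same probe were averaged, while each member probe had 1 spot. Control spots, spots marked as outliers and 14 probes lacking a value were not used. A gene was represented by its brightest probe over the 6 arrays and tested where that probe was well above background (on at least 0.5 of its spots) on all 3 arrays of a genotype.

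Groups came from the sample titles. Pathway and marker genes were tested with limma 3.58.1 in R 4.3.3, with Benjamini-Hochberg adjustment over 20645 genes. In a test on simulated data made from these arrays, 35 of 40 genes changed by 2 (log2) were recovered, 22 of 40 changed by 1, 29 of 40 by -1, 11 of 40 by 0.5 and 7 of 40 by -0.5, with 7 false calls. Far fewer genes changed in the simulation than were called in the data, which makes the adjusted threshold stricter there. These shares are therefore not the sensitivity of the tests reported. A lower limit ("at least") divides the brighter group's mean by the dim group's mean, each dim array set to no less than its lowest signal well above background. The members and lists were chosen with earlier results of these data known. Named were all 10 members, every ligand and other class B receptor tested, the 2 largest rises and 2 largest falls in each other list among genes that passed at an adjusted p under 0.05 without overlap, the 3 genes most like each measured member (predicted genes, clones and accessions left out, and, a limit set after the values were seen, members not well above background on all 6 arrays), and marker genes. The number of arrays limits the precision. The methods call the genotypes littermates, the sources used here do not say which mice shared a litter, and p-values measure the spread between these 6 samples. Where a genotype was below background, as for Adm2, Calca and Gnai1, part of that spread is of unmeasured levels. Promoters came from RefSeq GRCm38.p6. Plots were drawn with matplotlib 3.10.9.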

Additional observations from a re-analysis of the deposited data

How the results depend on the processing

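The log2 difference of Calcr was 8.89, and it was 6.72 after normexp with an offset of 50, 7.34 in the series matrix and 7.98 on the mean of its probes. That mean includes probe 2, which was fitted against unmeasured Ano1fl/fl levels. Under the alternatives run, no measured member whose groups did not overlap changed direction, and for members other than Calcr the size moved by more than the spread between arrays in 15 of 102 values. Setting dim arrays to their lowest signal well above background was chosen after seeing the data. Asking for a signal well above background on all 6 arrays left 5 members in place of 9, of which 1 was more than 2-fold higher and 2 lower, and the mean of all probes gave 3 higher and 2 lower, against 4 and 2. With every probe tested on its own, 6943 probes were called higher and 9747 lower over the array, against 4839 and 5987 genes, and 39 pathway probes were called higher and 36 lower, against 22 and 22 genes. On the mean of all probes, Crebbp turned to -0.31 and Gnai2 to 0.0085. Of 578 values for named pathway genes under alternatives, 531 stayed on their side of the threshold, 45 kept their direction but no longer passed, and 2 called values turned, as given above. Among the 531, 7 values of 3 genes that did not pass (Gcg, Pth2 and Adcyap1r1) changed sign. Leaving out each array in turn gave 18 to 21 pathway genes higher and 19 to 22 lower, 4104 to 4338 genes higher and 4876 to 5239 lower over the array, and 8.73 to 9.04 for Calcr. The methods' t-test called 23 pathway genes higher and 24 lower at an unadjusted p under 0.05, and 19 and 23 after adjustment. Replicate numbers are shared by the genotypes. Deviations of same-numbered arrays from their group means had correlations of 0.004, -0.06 and -0.08, and those of differently numbered arrays -0.12 to 0.18. With 3 arrays a group, these correlations cannot tell whether mice were paired. With the replicate block, 20 pathway genes were called higher and 19 lower, 38 of them shared with the fit without it, and 4200 genes higher and 5079 lower over the array.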
